A study of Homo sapiens with 4 samples.

Results

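The genes described here are the CXCR4 chemokine axis: CXCR4, its ligand CXCL12, the second CXCL12 receptor ACKR3, and the chemokines CXCL14 and CXCL5. These 5 genes were found by symbol, 1 row each, among the 58365 rows of a table of FPKM values, that is, fragment counts scaled to transcript length and to the total of the library. The study asked whether human pluripotent cells pass from an epithelial to a mesenchymal state and back as they form blood. These libraries belong to its part on Wnt signaling in the step from pluripotency to mesoderm. RNA was taken at day 2 from H1 cells, a human embryonic stem cell line, differentiated toward blood in Custom mTeSR1 medium; per the labels all 4 libraries had 40 ng/ml activin A and 50 ng/ml BMP4. In 2 libraries (DMSO replicates 1 and 2) the cells had vehicle only, and in the other 2 (IWP2 replicates 1 and 2) they also had IWP2, a small molecule that blocks Porcupine, the enzyme that Wnt proteins need for secretion; its dose is not given in the sources used here. All cells came from a single line. The paper states in general that analyses rested on independent experiments, but not whether these 2 replicates per group were separate cultures. The p-values therefore measure the spread between these libraries, which may be technical.

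Chemokines are small secreted proteins that steer cells through receptors of the cell membrane, most of which are coupled to inhibitory G proteins. CXCL12 signals through CXCR4. ACKR3 binds the same ligand, recruits arrestins, and takes CXCL12 up from the surroundings, which shapes the gradient that CXCR4-bearing cells follow. CXCR4 is widely used as a surface marker of cells leaving pluripotency toward mesendoderm and definitive endoderm, and the axis later guides migrating mesoderm, endothelial cells and blood progenitors.

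On GRCh38, the coordinates of the table placed CXCR4 (ENSG00000121966.6) at chr2:136114349-136118165 on the minus strand and ACKR3 (ENSG00000144476.5) at chr2:236567787-236582358 on the plus strand. CXCL12 (ENSG00000107562.16) lies at chr10:44370165-44386493, CXCL14 (ENSG00000145824.12) at chr5:135570679-135579279 and CXCL5 (ENSG00000163735.6) at chr4:73995642-73998779, each on the minus strand. All 5 are protein coding, and a value here is the sum over a gene's transcripts, of which GENCODE release 29 lists 8 for CXCL12 and 3 for CXCR4.

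The 250 bases before a RefSeq start of CXCR4 and of CXCL12 are shown because the receptor was called and its ligand was not. RefSeq gives CXCR4 3 starts, of which the one farthest upstream is shown, and CXCL12 1 start. In the RefSeq promoter table (GRCh38.p14), 4 of the 5 members had an entry, and ACKR3 did not. The CXCR4 window is chr2:136118150-136118399 and the CXCL12 window is chr10:44385098-44385347, both read 5′ to 3′ on the minus strand. Capitals mark matches on either strand to CTTTGA (the core bound by TCF/LEF factors, the nuclear partners of β-catenin), CAGGTG (an E-box bound by SNAI factors), TATAAA (the TATA box) or GGGCGG (the GC box).
CXCR4: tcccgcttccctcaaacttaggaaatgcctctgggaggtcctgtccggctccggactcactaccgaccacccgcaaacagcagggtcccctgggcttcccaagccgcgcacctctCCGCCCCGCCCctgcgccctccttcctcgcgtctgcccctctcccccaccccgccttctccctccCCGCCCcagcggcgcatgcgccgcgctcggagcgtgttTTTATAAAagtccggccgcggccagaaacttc
CXCL12: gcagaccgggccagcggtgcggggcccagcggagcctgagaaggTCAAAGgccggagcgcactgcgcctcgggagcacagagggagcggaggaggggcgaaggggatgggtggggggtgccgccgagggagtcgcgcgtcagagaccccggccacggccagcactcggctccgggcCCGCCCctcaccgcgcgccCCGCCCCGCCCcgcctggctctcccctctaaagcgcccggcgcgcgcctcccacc
The CXCR4 window held 3 matches to the GC box and, overlapping each other on opposite strands, 2 to the TATA box. The windows of the other CXCR4 starts held no TATA box match; the middle one (chr2:136117870-136118119) held none of these letters, and the last (chr2:136116236-136116485) held 1 GC box match. The CXCL12 window held 3 matches to the GC box and 1 to CTTTGA. Among 34943 windows of the same length before RefSeq starts, 42.5% held the GC box, 11.2% CTTTGA, 10.8% the TATA box and 17.5% CAGGTG. A match is a description of the letters only.

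Both receptors of CXCL12 fell with IWP2, whereas no ligand of the axis passed the test in either direction. CXCR4 stood at 24.1 and 14.5 FPKM in the DMSO libraries and at 3.92 and 4.40 FPKM in the IWP2 libraries. ACKR3 stood at 23.6 and 20.4 FPKM with DMSO and at 3.65 and 5.49 FPKM with IWP2. For both genes the lowest DMSO library lay above the highest IWP2 library, and for CXCR4 the DMSO replicates also lay far apart.

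The mean of CXCR4 was 4.64 times as high with DMSO as with IWP2 (19.3 ± 6.83 against 4.16 ± 0.340 FPKM, SD, n = 2 each). On the log2(FPKM + 1) scale, which understates the change of low genes, CXCR4 fell by 1.94 (SE 0.247, adjusted p = 0.0109, limma). The mean of ACKR3 was 4.81 times as high with DMSO (22.0 ± 2.26 against 4.57 ± 1.30 FPKM). On the same log2 scale ACKR3 fell by 2.06 (SE 0.192, adjusted p = 0.00487, limma). Thus 2 of 5 members were called at an adjusted p under 0.05, both lower, where 13.2% of all 15980 rows tested were called, 7.35% lower and 5.81% higher. The median difference over all rows tested was -0.014 on the log2 scale. A difference below that of CXCR4 was found in 1.30% of rows tested, and below that of ACKR3 in 1.16%. In bulk RNA, fewer cells with a transcript and less of it per cell cannot be told apart.

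Each of these calls was lost when certain libraries were left out, which leaves a lone library whose spread is taken from the other group. CXCR4 stayed called without DMSO replicate 1 (adjusted p = 0.0443, limma) or DMSO replicate 2 (0.0397), but not without IWP2 replicate 1 (0.143) or IWP2 replicate 2 (0.136). ACKR3 missed the threshold in every one of the 4 cases, with adjusted p-values from limma of 0.0543 to 0.0681, while its log2 difference stayed between -2.30 and -1.82. With no filter on low values, which adds 12937 rows, both calls were lost as well (adjusted p = 0.0871 for CXCR4 and 0.0641 for ACKR3, limma).

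**Figure D1:**
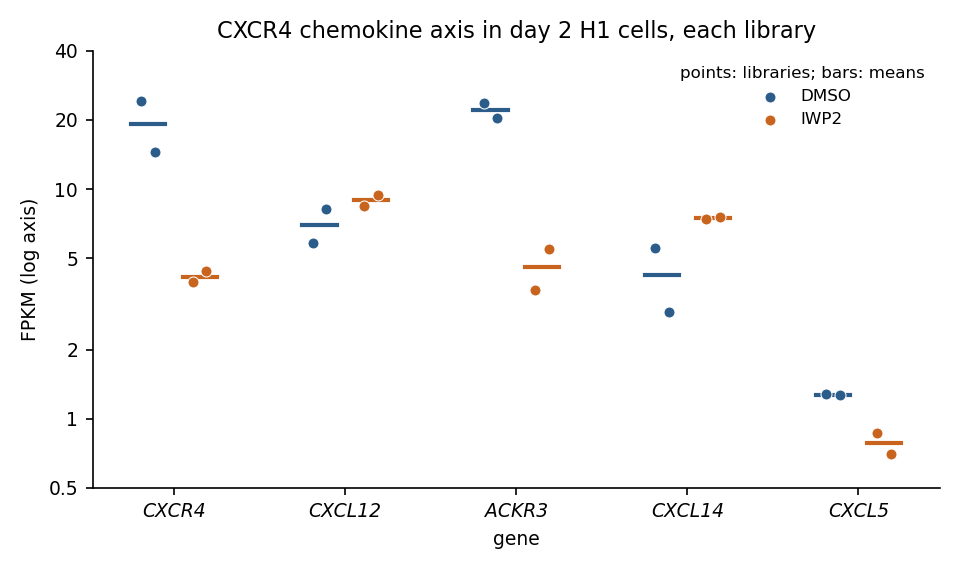
FPKM (log axis) of the 5 members in each of the 4 libraries; points are libraries, bars are group means. CXCR4 and ACKR3 lie at 14.5 FPKM or more in both DMSO libraries and at 5.49 FPKM or less in both IWP2 libraries, whereas the shifts of CXCL12, CXCL14 and CXCL5 are smaller.

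CXCL12, the ligand shared by both receptors, was present in every library. It stood at 5.80 and 8.19 FPKM with DMSO and at 8.40 and 9.45 FPKM with IWP2. The IWP2 libraries were the higher ones, but DMSO replicate 2 and IWP2 replicate 1 almost touched. Its log2 difference was 0.33 (SE 0.180, 95% interval -0.14 to 0.79, adjusted p = 0.311, limma), so a modest rise and a slight fall both lie within the interval. It was 0.11 without DMSO replicate 1 and 0.54 without DMSO replicate 2, and not called in either case (adjusted p = 0.663 and 0.161, limma).

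CXCL14, a chemokine of epithelia reported to act together with CXCL12 on CXCR4, stood at 5.51 and 2.92 FPKM with DMSO and at 7.40 and 7.57 FPKM with IWP2. The IWP2 libraries agreed closely and both exceeded the DMSO libraries, which lay apart. The log2 difference was 0.75 (SE 0.259, 95% interval 0.087 to 1.41), and it missed the threshold after adjustment over all rows (adjusted p = 0.135, limma). This value depended on the DMSO library kept: it was 1.12 without DMSO replicate 1 and 0.38 without DMSO replicate 2, and not called in either case.

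CXCL5, a neutrophil-attracting chemokine that acts on CXCR2 rather than CXCR4, was the lowest member, and CXCR2 itself did not pass the filter on low values. CXCL5 stood at 1.28 and 1.27 FPKM with DMSO and at 0.868 and 0.704 FPKM with IWP2. The groups did not overlap, and the log2 difference of -0.35 did not pass the test (SE 0.169, 95% interval -0.78 to 0.084, adjusted p = 0.254, limma). Groups that do not overlap were common: this held for all 5 members and for 58.6% of all rows tested.

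The order of the members by level differed between the groups, as FPKM, which is per transcript length, allows to be read. With DMSO the means ran from ACKR3 (22.0 FPKM) and CXCR4 (19.3 FPKM) to CXCL12 (7.00 FPKM), CXCL14 (4.21 FPKM) and CXCL5 (1.27 FPKM). With IWP2, CXCL12 (8.92 FPKM) and CXCL14 (7.49 FPKM) stood above ACKR3 (4.57 FPKM) and CXCR4 (4.16 FPKM), and CXCL5 (0.786 FPKM) was again last. The ranges of ACKR3 and CXCR4 overlapped in both groups, so their order is not resolved; the ranges of all other neighbours did not overlap.

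Within a library, the ratio of receptor to ligand changed side. CXCR4 was 4.16 and 1.76 times the level of CXCL12 in the DMSO libraries and 0.467 and 0.465 times in the IWP2 libraries. ACKR3 was 4.07 and 2.49 times the level of CXCL12 with DMSO and 0.435 and 0.581 times with IWP2. The ratio of CXCR4 to ACKR3 stayed near 1 in both groups, at 1.02 and 0.709 with DMSO and at 1.07 and 0.801 with IWP2. These ratios carry no test of their own.

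**Figure D2:**
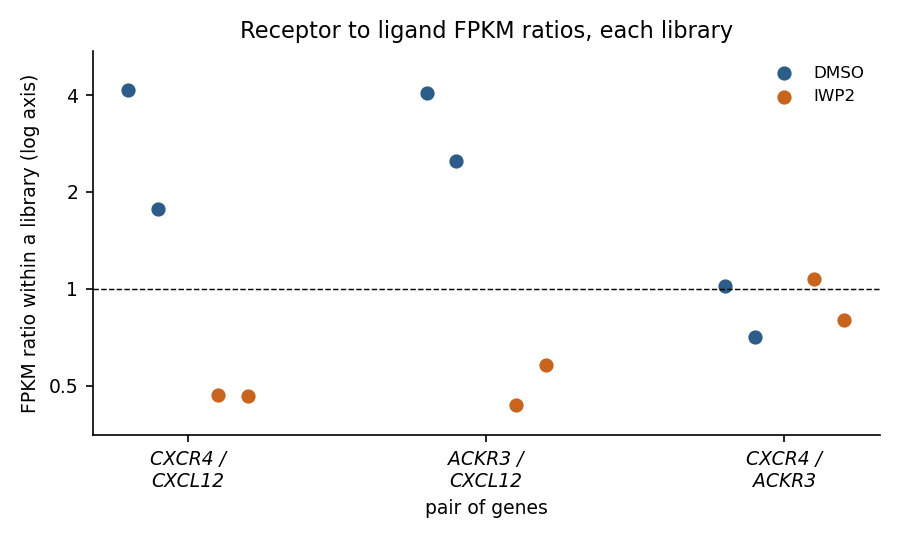
Ratio of FPKM values of gene pairs within each library (log axis); each point is a library and the dashed line marks equal levels. CXCR4 and ACKR3 lie above CXCL12 in the DMSO libraries (1.76 to 4.16 times) and below it in the IWP2 libraries (0.435 to 0.581 times), whereas CXCR4 against ACKR3 overlaps between groups.

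**Figure D3:**
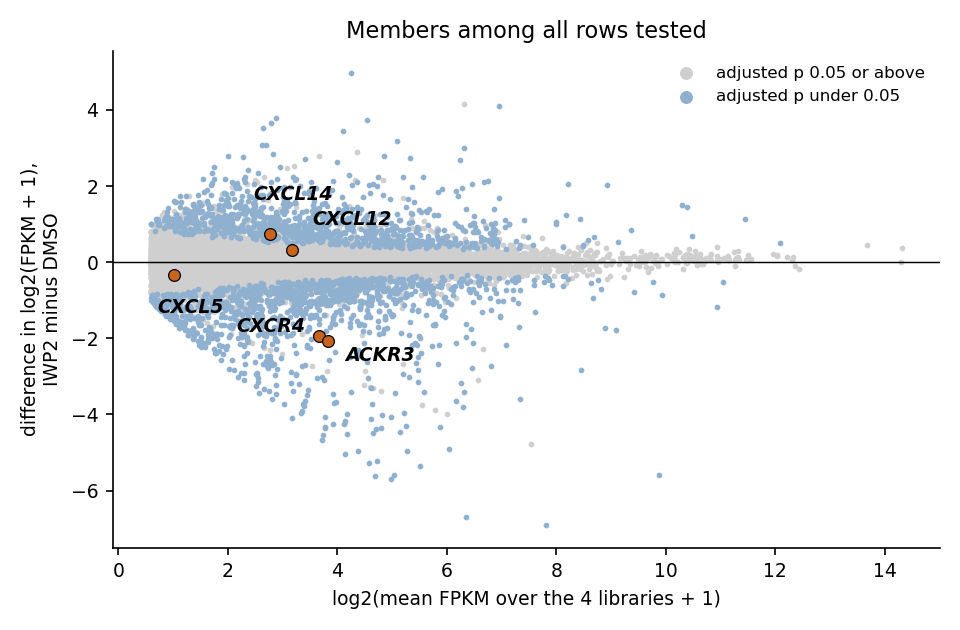
Difference in log2(FPKM + 1), IWP2 minus DMSO, against the log2 mean level for the 15980 rows tested; blue rows have a limma adjusted p under 0.05 and members are orange. CXCR4 and ACKR3 lie at similar levels and differences (-1.94 and -2.06), and CXCL12, CXCL14 and CXCL5 lie among the rows not called.

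Most of the wider chemokine family was low at this stage. Of 21 other chemokine receptors, 2 passed the filter of a mean of 0.5 FPKM, and the other 19 reached at most 0.266 FPKM in any library. Of the 2 tested, 1 was called, beside 13.2% of all rows tested. CXCR5, the receptor of CXCL13 on B cells, was at 7.41e-06 and 0.104 FPKM with DMSO and at 2.01 and 1.29 FPKM with IWP2. Its log2 difference was 1.32 (SE 0.218, adjusted p = 0.0220, limma), from a level close to none. CXCR5 passed the filter only through the IWP2 libraries (mean 1.65 FPKM, against 0.0520 FPKM with DMSO). At that DMSO level a gene could pass only by being higher with IWP2, so the direction was set by the filter. Values as small as those with DMSO are estimates rather than whole fragments. CCR10, a receptor of skin and mucosal lymphocytes, was at 0.439 and 0.396 FPKM with DMSO and at 0.438 and 1.11 FPKM with IWP2 (adjusted p = 0.489, limma). Its DMSO mean of 0.417 FPKM also lay below the filter.

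Of 40 other chemokine ligands, 21 were listed at 0 in all 4 libraries and 5 passed the filter. Of the 5 tested, 1 was called (20%), beside 13.2% of all rows tested. CCL2, the monocyte-attracting ligand of CCR2, had 20.3 and 13.0 FPKM with DMSO and 5.30 and 5.93 FPKM with IWP2. It was higher in both DMSO libraries, with DMSO replicate 1 on top as for CXCR4, and it fell by 1.39 on the log2 scale (SE 0.220, adjusted p = 0.0199, limma). Its receptor CCR2 was listed at 0 throughout. CX3CL1, a membrane-bound chemokine, had a log2 difference of 0.54 (SE 0.186) and CXCL3, a ligand of CXCR2, of 0.32 (SE 0.203); neither passed (adjusted p = 0.132 and 0.368, limma). The CCL2 call held without DMSO replicate 2 and was lost without each of the other libraries, and the CXCR5 call was lost without any of the 4.

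**Figure D4:**
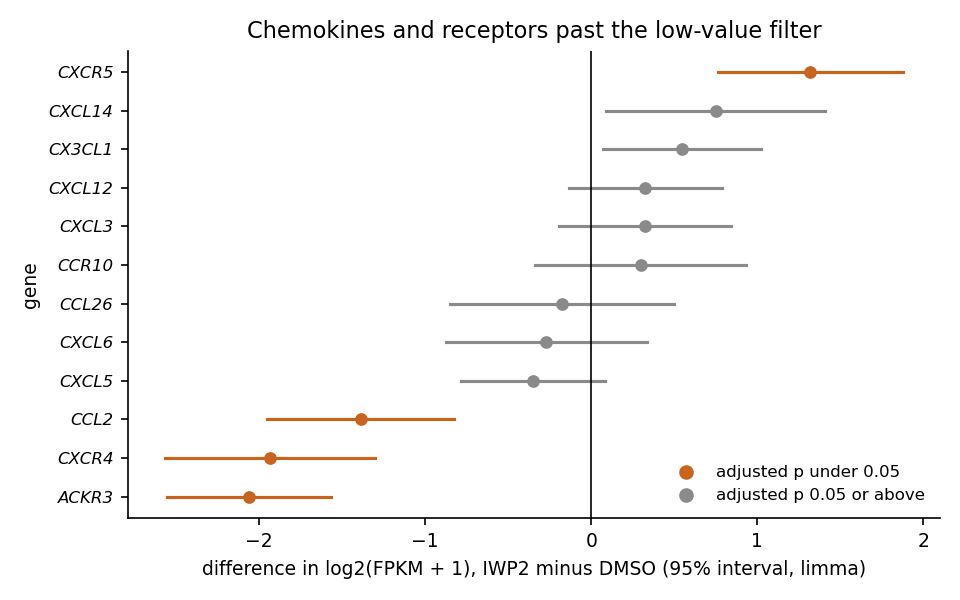
Difference in log2(FPKM + 1), IWP2 minus DMSO, for the 12 chemokines and receptors that passed the filter on low values; bars are 95% intervals from limma, orange marks an adjusted p under 0.05. ACKR3, CXCR4 and CCL2 lie below 0 and CXCR5 above it (1.32), and the other 8 are not called. CXCR5 passed the filter only through the IWP2 libraries, so its direction was set by the filter. Over all 15980 rows tested, 13.2% were called.

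Genes that carry or end the CXCR4 signal were mostly well above the filter. Of 32 such genes 31 passed the filter, and of these 4 fell, 2 rose and 25 were not called. The share called was 19.4%, beside 13.2% of all rows tested. The median log2 difference of the list was -0.12 beside -0.014 over all rows. RGS5, which switches off inhibitory G proteins, had 70.6 and 61.4 FPKM with DMSO and 15.5 and 12.4 FPKM with IWP2. It fell by 2.17 on the log2 scale (SE 0.139, adjusted p = 0.00179, limma). PREX1, a Rac activator driven by G protein βγ subunits, fell by 1.13 (SE 0.114), from 30.0 and 33.0 to 14.9 and 12.9 FPKM. GNG2, a γ subunit, fell by 1.09 (SE 0.163), from 4.64 and 4.17 to 1.76 and 1.33 FPKM.

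RGS16, another member of the family that ends G protein signals, went the other way. It rose by a log2 difference of 1.05 (SE 0.151, adjusted p = 0.0153, limma), from 29.7 and 22.2 FPKM to 52.9 and 55.2 FPKM. The remaining calls, named after their values were seen, were GNAI1, an inhibitory α subunit, which fell by 0.83, and ARRB2, the arrestin that binds activated CXCR4 and ACKR3, which rose by 0.53. The ARRB2 call was lost without the variance trend (adjusted p = 0.0508, limma). GNB1, a β subunit (log2 difference -0.15), and CDC42, a GTPase of cell polarity (-0.20), were the most abundant genes not called.

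Among 12 ligand partners and proteases, 8 passed the filter, 2 fell and none rose at the threshold, with a median log2 difference of -0.17. The share called was 25% of the 8 tested, beside 13.2% of all rows tested. MMP14, a membrane protease that can cleave CXCL12, fell by 1.02 (SE 0.0880, adjusted p = 0.00409, limma), from 182.6 and 164.7 FPKM to 87.0 and 82.8 FPKM. CD44, the hyaluronan receptor that can act as a co-receptor of CXCR4, had 11.5 and 5.15 FPKM with DMSO and 1.92 and 1.93 FPKM with IWP2. It fell by 1.59 (SE 0.346, adjusted p = 0.0455, limma), a call that was lost without the variance trend (adjusted p = 0.0646). MIF, an alternative CXCR4 ligand, had 508.5 to 516.2 FPKM with DMSO and 492.6 to 554.5 FPKM with IWP2, and HMGB1, which forms a complex with CXCL12, had 763.5 to 820.5 FPKM and 773.9 to 801.1 FPKM. Their log2 differences were 0.029 and -0.0075 (adjusted p = 0.874 and 0.966, limma).

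Of the 10 genes called in these 4 lists, RGS5, CCL2, CD44 and MMP14 were called without DMSO replicate 2, and RGS5, RGS16 and MMP14 (with RGS4, not called on all libraries) without DMSO replicate 1. All of these calls were lost without IWP2 replicate 2, and all but that of RGS5 without IWP2 replicate 1. The log2 difference of RGS5 was -2.32 without IWP2 replicate 1 and -2.02 without IWP2 replicate 2.

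**Figure D5:**
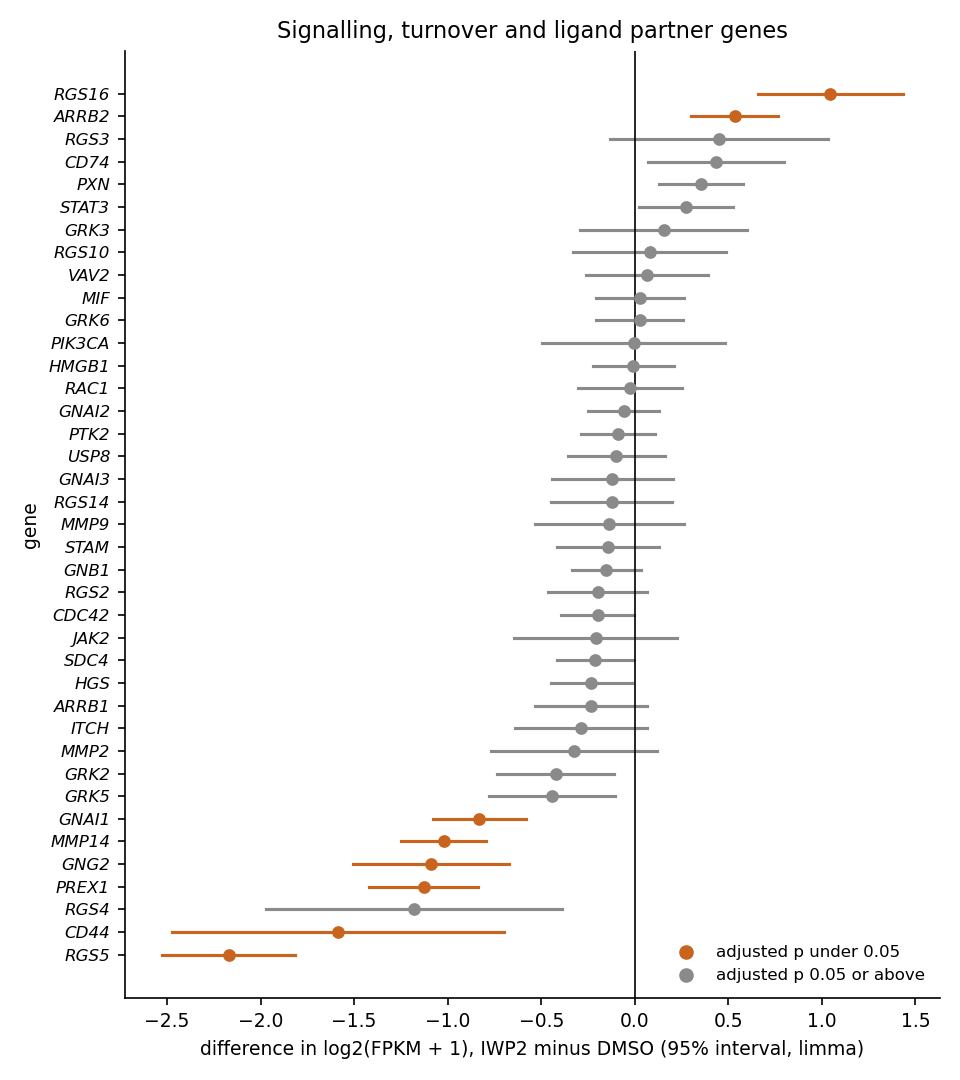
Difference in log2(FPKM + 1), IWP2 minus DMSO, for the 39 signalling, turnover, ligand partner and protease genes that passed the filter; bars are 95% intervals from limma, orange marks an adjusted p under 0.05. RGS5, CD44, PREX1, GNG2, MMP14 and GNAI1 lie below 0, ARRB2 and RGS16 above it, and the other 31 are not called.

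Of 14 transcription factors and hypoxia genes reported to act on CXCR4 or CXCL12, 13 passed the filter, 7 fell and 1 rose. The share called was 61.5% of the 13 tested, beside 13.2% of all rows tested. This list, like the others, was chosen with earlier results of these data known, so the share is no measure of enrichment. EOMES, a T-box factor of the primitive streak, fell from 137.8 and 152.6 FPKM to 12.8 and 12.6 FPKM, and MESP1, which marks the earliest cardiovascular mesoderm, fell from 47.6 and 74.6 FPKM to 0.244 and 0.0870 FPKM. GATA6 fell by 4.90 and GATA4 fell by 3.97 on the log2 scale. Both are factors of mesendoderm. The remaining genes that fell, named after their values were seen, were SNAI2, SNAI1 and FOXC1 (log2 differences -3.20, -2.62 and -1.88). SOX17, a factor of endoderm and hemogenic endothelium, was at 154.7 and 104.2 FPKM with DMSO and at 79.7 and 94.9 FPKM with IWP2 and was not called (adjusted p = 0.167, limma). HIF1A, the hypoxia factor that can switch on CXCR4, was not called either (log2 difference -0.14, adjusted p = 0.368, limma). The gene that rose, named after its values were seen, was the related hypoxia factor EPAS1, at 0.997 and 0.970 FPKM with DMSO and at 5.48 and 4.42 FPKM with IWP2. Its log2 difference was 1.58 (SE 0.163, adjusted p = 0.00628, limma), a call that was lost without any of the 4 libraries (0.0592 to 0.0966) and with no filter on low values (0.0650). Of these, EOMES, MESP1, SOX17, GATA4 and GATA6 also stand among the cell type markers below.

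Markers of cell identity also differed between the groups, though not all in the direction of the 2 receptors. Over all rows tested, 7.35% were called lower and 5.81% higher. Of 14 primitive streak and mesoderm markers, 13 passed the filter and all 13 fell. The list summed to 1297 to 1656 FPKM with DMSO and 193 to 213 FPKM with IWP2. Of 7 definitive endoderm markers 6 passed the filter, 4 fell and 1, CLDN6, rose. The sum was 2149 to 2473 FPKM with DMSO, most of it CER1. With IWP2 it was 567 to 631 FPKM, most of it CLDN6, the marker that rose. Of 8 pluripotency markers, 5 rose and 1 fell, and the sum, to which POU5F1 gave the most, was 1191 to 1371 FPKM and 2497 to 2502 FPKM. Of 10 endothelial and blood markers 4 passed the filter and 2 fell; the list summed to 9.53 to 12.6 FPKM and 4.24 to 5.14 FPKM, with GATA1 listed at 0 in all libraries. Of 8 amnion and trophoblast markers 6 passed the filter, 3 rose and 1 fell, with sums of 69.4 to 70.0 FPKM and 83.3 to 89.7 FPKM. The 4 neural markers stayed at or below 1.80 FPKM in sum, and only 1 of them, PAX6, passed the filter. PAX6 was at 1.33 and 0.646 FPKM with DMSO and at 0.0838 and 0.0278 FPKM with IWP2. It was not called (log2 difference -0.89, adjusted p = 0.0780, limma). The part of these shifts in the fall of CXCR4 and ACKR3 was not tested. As a check of the treatment, 7 of 10 Wnt target genes fell and none rose at the threshold, SP5 among them from 53.2 and 47.0 FPKM to 0.379 and 0.363 FPKM.

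The genes whose pattern was most like that of a member were found by the distance between log2(FPKM + 1) values centred on their own mean, over 4 libraries and among 14022 rows with a mean of at least 1 FPKM. For CXCR4 these were FRZB, a secreted Wnt antagonist (distance 0.114), S100A10, a partner of annexin A2 (0.146), and PGM1, an enzyme of glycogen turnover (0.163). FRZB ran at 8.61, 4.61, 0.886 and 0.884 FPKM in DMSO replicates 1 and 2 and IWP2 replicates 1 and 2, with a similar gap between the DMSO libraries as CXCR4. For ACKR3 they were APOL3 (0.127), AC025171.5 (0.190) and LGALS1, a galactose-binding lectin (0.195). With IWP2, APOL3 was at 0 and 0.313 FPKM and AC025171.5 at 0.120 and 0.352 FPKM. These are close to 0, unlike ACKR3, and the log2(FPKM + 1) scale understates such a change. For CXCL12 they were GNB3 (0.0512), UMAD1 (0.0569) and AFTPH (0.0669), for CXCL14 PLBD1 (0.0501), NKX1-2 (0.0573) and PLPP2 (0.0677), and for CXCL5 ANKRD36 (0.0100), MYNN (0.0141) and TBC1D9 (0.0223). With 4 libraries in 2 groups, many rows share such a pattern, and a small distance says no more than that.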

How the data were processed

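Total RNA from 2 DMSO and 2 IWP2 samples was made into TruSeq libraries, and the deposited table gives 1 FPKM value per gene and library, normalized by the authors; its column headers give with or without IWP2 and a number, which was used as the replicate number. The submitters' processing notes list BWA, Bowtie, RSEM and hg19 without roles, yet 97.3% of the 58102 rows matched by gene ID to GENCODE release 29 carry its GRCh38 coordinates, so GRCh38 was used. The study's methods exchange the concentrations that the labels give for activin A and BMP4. Depth is unknown, because FPKM values keep no read totals; the FPKM values of a library summed to 616418 to 653850. Correlations of log2(FPKM + 1) across genes, which are not independent replicates, were 0.975 to 0.981 within groups and 0.938 to 0.948 between groups.

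Rows with a mean of at least 0.5 FPKM over the 4 libraries (15980 of 58365) were fitted in limma 3.58.1 (R 4.3.3) on log2(FPKM + 1) with group as the only term and a mean-variance trend; tests were two-sided and Benjamini-Hochberg adjusted over all rows tested, with calls at an adjusted p under 0.05. The fit was tested on simulated data. With 2 against 2 libraries an exact permutation test cannot go below p = 0.333, so none was used. Named genes were the 5 members, from each list up to 4 called genes with the largest differences and up to 2 abundant genes not called, and the 3 rows nearest each member; where a list was described briefly, not all were printed. The members and lists were chosen with earlier results of these data known. Alternatives were the pseudocount, the filter, the scaling, the trend, a replicate block and leaving out each library. No protein sequences were used here.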

Additional observations from a re-analysis of the deposited data

How the results depend on the processing

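The direction of all 5 members was the same under every alternative run. With no filter on low values (28917 rows tested) limma called 381 rows in all in place of 2104, and 0 of the 5 members. An unadjusted p under 0.05 (limma) was then found for 2 of the 5 members, beside 5731 of the 28917 rows. Of the list genes, 2 were called in place of 10. CXCR4 then had a log2 difference of -1.94 (adjusted p = 0.0871, limma) and ACKR3 of -2.06 (adjusted p = 0.0641, limma). Leaving out each library in turn gave 94 to 696 calls over all rows, 0 to 1 called member and 0 to 4 called list genes, with CXCR4 between -2.29 and -1.58 and ACKR3 between -2.30 and -1.82; 2 to 3 members had an unadjusted p under 0.05, not the same ones each time (CXCL12 without DMSO replicate 2, where CXCL14 did not). CXCL12, CXCL14 and CXCL5 were called under no setting; a pseudocount of 0.1 moved CXCL5 from -0.35 to -0.64. Among other named genes, the sign turned for HMGB1 under median-ratio scaling (0.0071), and across the fits that left out a library (-0.059 to 0.044), for MIF without IWP2 replicate 2 (-0.057) and for RNF43 without DMSO replicate 1 (0.11, against -0.45 without DMSO replicate 2), none of them called. Of the 51 other listed genes that were called, 25 lost the call with no filter, 19 to 38 when a library was left out, 4 without the variance trend (CD44, ARRB2, ZFP42 and KDR), and 1 (TEK) under median-ratio scaling and under the replicate block. With the replicate number as a block, 1901 rows, 2 members and 10 list genes were called, CXCR4 at an adjusted p of 0.0129 and ACKR3 at 0.00828; same-numbered libraries deviated together only weakly (r = 0.142 across genes), and the labels give no shared origin for the numbers. With no filter the unadjusted p (limma) also rose, from 0.000505 to 0.00481 for CXCR4 and from 0.000112 to 0.00155 for ACKR3. Their log2 differences stayed the same, and the SE of CXCR4 went from 0.247 to 0.285. The cause of the losses was not tested. FPKM values give no depth, so the precision of low genes such as CXCL5 and CXCR5 is unknown.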
